A study of Chlamydomonas reinhardtii with 28 samples.

Results

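The histone genes of *Chlamydomonas reinhardtii*, a unicellular green alga, were described by type across 7 laboratory strains. A gene was included where its definition line named histone H1, H2A, H2B, H3 or H4 and did not name a methyltransferase, an acetyl group, a demethylase, a kinase or a chaperone. The rule took in 127 of the 17611 genes in the table. They were 117 core histone copies (27 H2A, 26 H2B, 32 H3 and 32 H4), 6 genes defined as variants (HAV2 and HAV3 for H2A, HBV1 for H2B and HTV1, HTV2 and HTV3 for H3) and 3 linker histone H1 genes (HON1, HON2 and HON3). The remaining member, MYSM1, is defined as a histone H2A deubiquitinase, an enzyme and not a histone, and was kept because its wording met the rule.

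Core histones H2A, H2B, H3 and H4 form the protein spool of the nucleosome, and linker histone H1 binds the DNA between nucleosomes. Replication-dependent histone genes are used mainly in S phase, when new chromatin is packed behind the replication fork, whereas variant histones can be made and placed outside S phase. In animals the replication-dependent messages end in a hairpin and carry no poly(A) tail. Only poly-adenylated RNA was sequenced here, so the values give the poly-adenylated RNA of each gene, and the share of each histone's RNA that carries a tail was not measured.

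RNA was measured in 28 libraries, 4 biological replicate cultures of each strain. All strains are labelled as wild type and were grown to mid-log phase in acetate-containing TAP medium in continuous light of 50–70 µmol photons per m2 and second, shaken at 180 rpm. CC-125 and CC-1690 are of mating type plus (mt+), and CC-124, CC-1009, CC-1691, CC-4532 and CC-4533 of mating type minus (mt-). In CC-125 and CC-4533 the library names carry the set number 2, in the other 5 strains the number 1, so set and strain cannot be told apart for these 2. In the 20 mt- libraries MID1, the gene that sets the minus mating type, was at 3.12 to 11.4 FPKM (fragments per kilobase of gene, scaled for library size). In the 8 mt+ libraries MID1 was at 0 to 0.08 FPKM. A second marker, FUS1 of the plus type, peaked at only 0.1 FPKM among mt+ cultures and read 0 throughout the mt- ones. That is too low to mark the plus strains, so their label was checked only through the near absence of MID1.

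The depth of a library, taken from the steps between low FPKM values and given relative to the other libraries, was 1.21 to 1.97 in set 2 and 0.587 to 1.095 in set 1. The number of core copies at 0 FPKM was 1 to 31 in a set 2 library and 12 to 62 in a set 1 library. The summed FPKM of a library was between 480355 and 1319895. Replicate 3 of CC-4533 stood apart from the other 3 replicates of the strain. In that library all 35 of 35 DNA replication genes were lower than in each of the other 3 CC-4533 libraries, with a median log2 difference of -1.84, beside 41.2% of all 14785 genes tested. Results for CC-4533 are therefore given with and without it.

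The core copies were nearly all found at very low levels. Their mean over the 28 libraries had a median of 0.226 FPKM over the 117 genes, against 3.45 FPKM over all genes, and 107 of them were at 0 in at least one library. Only 8 core copies had a mean above 1 FPKM, namely the H2A and H2B genes HTA21, HTA22, HTB21 and HTB22 on chromosome 13 and the H3 and H4 genes HTR24, HTR25, HFO24 and HFO25 on chromosome 16. These 8 genes held 59.6% of the summed core FPKM. Multimapping reads were given 1 location and counted as fractions, so reads can pass between near-identical copies and the level of a single copy is uncertain. A read kept at 1 location and counted as a fraction can also add less than 1 read in total, so core sums may be too low. How far this, or the selection of poly-adenylated RNA, lowers core copies beside variants was not tested.

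Of the 6 variants, 5 were far above most core copies. HAV2, an H2A variant, had a mean of 145.9 FPKM and alone held 55.5% of the summed FPKM of all histone genes, the enzyme MYSM1 left out. HTV2 (H3) followed at 32.3 FPKM, HTV1 (H3) at 7.88, HBV1 (H2B) at 5.21 and HTV3 (H3) at 4.08 FPKM. HAV3, the other H2A variant, was at 0 FPKM in 24 of 28 libraries and reached 0.28 FPKM at most. The 3 linker genes were low, at 3.31 FPKM for HON1, 1.54 for HON3 and 0.83 for HON2. Variants and linkers together made up 76.5% of the histone sum, as the plot of levels by type shows. These shares hold for the FPKM as counted, in which the core sums may be too low.

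**Figure D1:**
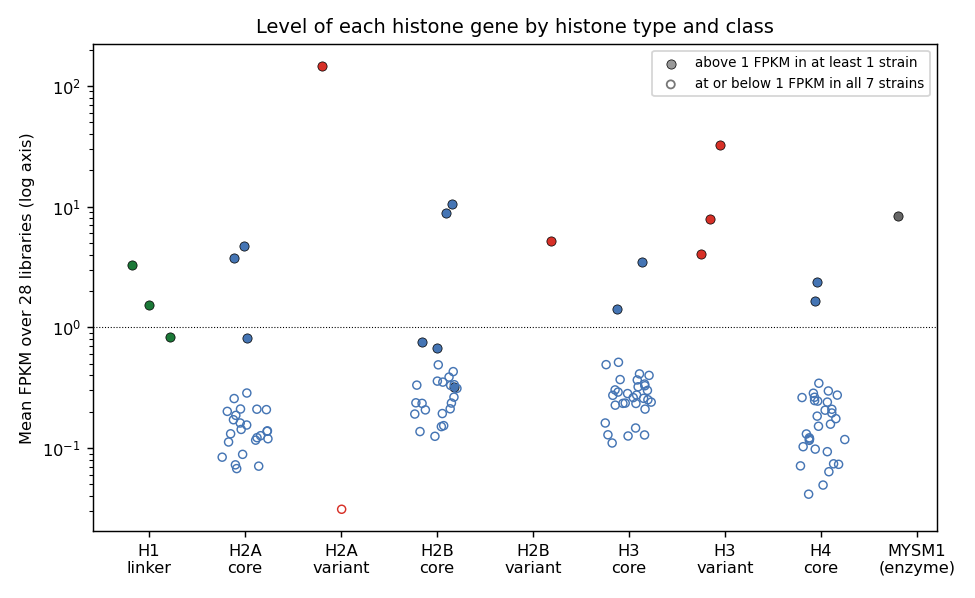
Mean FPKM over 28 libraries (log axis) of each of the 127 genes, by histone type and class. Filled points are the 21 genes above 1 FPKM in at least 1 strain and open points the 106 others. Variants (red) reach 145.9 FPKM, while most core copies (blue) lie between 0.0414 and 0.513 FPKM.

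Core copies lie in clusters. By locus number 55 are on chromosome 6, 30 on chromosome 17, 18 on chromosome 12, 8 on chromosome 13 and 6 on chromosome 16. In the RefSeq annotation, which is of an earlier assembly, every one of the 117 lies next to another core copy, and 116 lie next to a gene of the partner type, H2A beside H2B or H3 beside H4. Within these pairs the mean levels were compared by type. The H2B gene had a higher mean FPKM than its H2A neighbour in 22 of 26 pairs, with a median ratio of H2B over H2A of 2.11. The H3 gene was higher than its H4 neighbour in 23 of 32 pairs, with a median ratio of H4 over H3 of 0.552. Most of these pairs had means below 1 FPKM and many values of 0, so the ratios are uncertain and were not tested. HTA7 and HTB7, for example, were each the higher in 11 libraries. On chromosome 13 HTB21 was above HTA21 in 28 of 28 libraries and HTB22 above HTA22 in 27 of 28. On chromosome 16 HTR25 was above HFO25 in 25 libraries, whereas HTR24 and HFO24 traded places, with HFO24 higher in 15 libraries and HTR24 in 12.

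The summed FPKM of the 117 core copies was lowest in CC-1691. It was 29.9, 34.0, 30.1 and 30.6 FPKM in the 4 CC-1691 libraries, against 36.8 to 113.9 FPKM in the other 24 libraries (median 58.9). The 4 libraries thus lay below all others on the FPKM scale. Their summed FPKM over all genes was 489053 to 532680, where all libraries ran from 480355 to 1319895. As a share of that total they did not lie below all others. CC-4533 replicate 3 had 43.5 of 939527 FPKM, a smaller share than the 34.0 of 489053 FPKM in CC-1691 replicate 2. In CC-125 the sum was 77.0, 98.8, 89.2 and 92.6 FPKM, against 29.9 to 113.9 FPKM elsewhere (median 53.1), so CC-125 was high and even, though 5 libraries of CC-124, CC-1690 and CC-4533 lay within or above its range. The strain means were 89.4 ± 9.15 FPKM in CC-125, 56.0 ± 3.37 in CC-4532, 44.5 ± 7.67 in CC-1009 and 31.1 ± 1.92 in CC-1691 (SD, n = 4 each). These sums are a description and were not tested.

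The core sums of the other 3 strains differed widely between replicates. CC-124 had 106.5, 53.8, 44.8 and 81.0 FPKM (71.5 ± 27.9, SD, n = 4). Its replicates 1 and 4 were the high ones and also had larger summed FPKM over all genes (746195 and 687533) than replicates 2 and 3 (480355 and 489219). CC-1690 had 50.1, 113.9, 48.3 and 64.8 FPKM (69.3 ± 30.7, SD, n = 4), and its replicate 2, the highest of all 28 libraries, had the largest total, 1319895. The part of these totals in the core sums was not tested. CC-4533 had 97.6, 79.5, 43.5 and 64.6 FPKM, with a mean of 71.3 ± 22.9 (SD, n = 4), and 80.6 ± 16.5 (SD, n = 3) without replicate 3, which was the lowest. As a share of a library's summed FPKM, the highest strain became CC-124, and the highest strain mean was 1.91 times the lowest, in CC-1691, against 2.87 times for the sums themselves (CC-125 over CC-1691).

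By type, the H3 core sum in CC-1691 was 4.87 to 7.23 FPKM, below the 7.37 to 26.9 FPKM of the other 24 libraries without overlap. As a share of the summed FPKM this separation did not hold. CC-1690 replicate 3 had 9.56 of 794084 FPKM, a smaller share than the 7.23 of 489053 FPKM in CC-1691 replicate 2. The H4 sum in CC-1691 was 3.69 to 4.69 FPKM, with 1 of the other 24 libraries below its highest value. The H2B sum was 11.7 to 15.4 FPKM in CC-1691 and the H2A sum 4.73 to 8.45 FPKM, each with 2 of the other 24 libraries below its highest value. CC-125 had the highest mean of all 7 strains for H2A (20.1 ± 2.41 FPKM), H2B (37.2 ± 5.55) and H4 (14.04 ± 1.12), and CC-4533 for H3 (18.6 ± 6.33, and 20.35 ± 6.396 FPKM with n = 3 without replicate 3, SD). The 4 panels of core sums show the same low position of CC-1691 in each type.

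**Figure D2:**
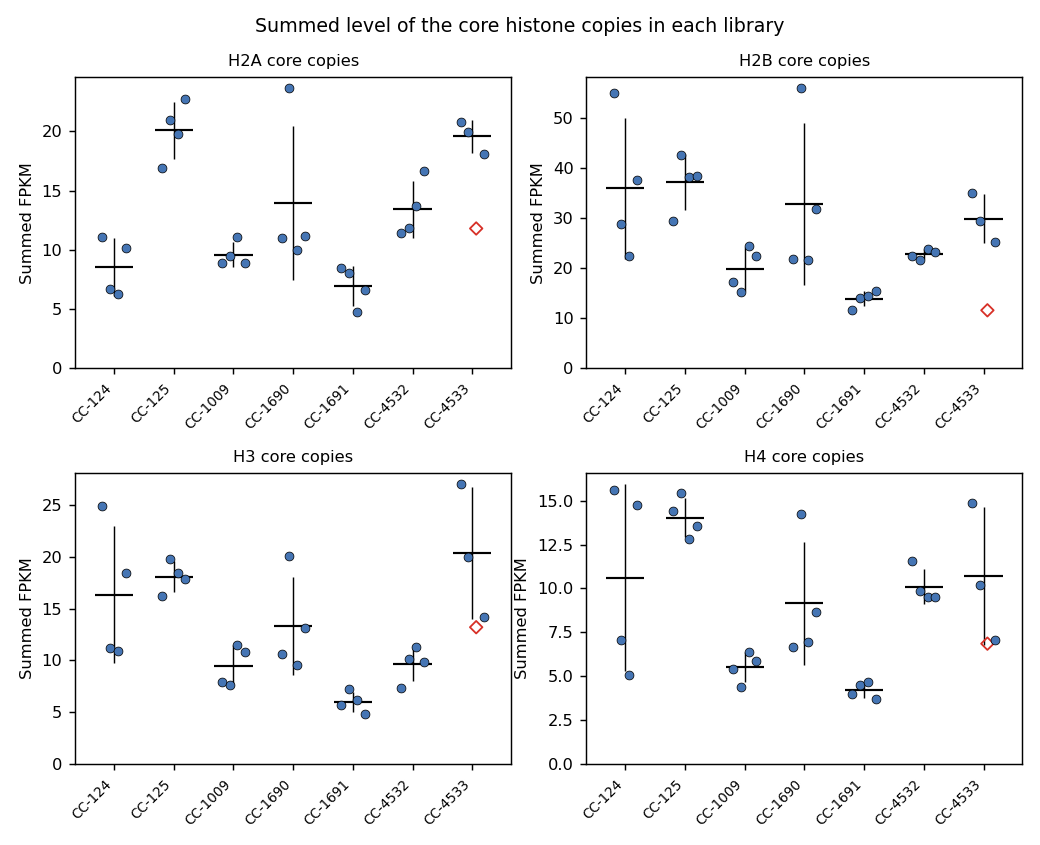
Summed FPKM of the core copies of each type in each library, by strain. Points are libraries, the red diamond is CC-4533 replicate 3, and bars are the mean ± SD of 4 libraries (3 for CC-4533, without the diamond). CC-1691 is lowest in all 4 types, and CC-1690 replicate 2 and CC-124 replicate 1 stand high for H2B.

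Strains also differed in which copies held the core RNA. The 8 higher copies on chromosomes 13 and 16 summed to 64.0 ± 5.82 FPKM in CC-125 (SD, n = 4), against 16.8 to 79.99 FPKM (median 31.9) in the other 24 libraries, of which only CC-1690 replicate 2 exceeded the lowest CC-125 library. The other 109 copies summed to 40.9 ± 13.6 FPKM in CC-4533 (45.97 ± 11.03, n = 3, without replicate 3) and to 36.0 ± 17.8 FPKM in CC-124, while the other 5 strain means ran from 13.6 FPKM in CC-1691 to 25.3 FPKM in CC-125. The 55 copies on chromosome 6 held 25.7% of the core sum in CC-4533, 23.4% in CC-1691 and 14.3% in CC-125. The 8 copies on chromosome 13 held 35.6% in CC-4533, against 53.3% in CC-125. The CC-4533 libraries were also among the deepest, and the part of depth in the low copies was not tested.

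A level of more than 1 FPKM in at least one strain was required for a test, and 21 of the 127 members passed: the 3 linkers, 5 variants, MYSM1 and 12 core copies. Of the 12 core copies, HTB3 passed only through CC-1691, HTB17 only through CC-124, HTA9 through CC-125 and CC-4533, and HTB28 through CC-124, CC-125 and CC-1690. HON2 passed through CC-124 and CC-1690. The 105 other core copies and HAV3 were not tested. They had means of 0.0311 to 0.513 FPKM and no value above 1.85 FPKM. By limma, a strain's mean was set against the average of the other 6 strain means on log2(FPKM + 0.1), with p-values adjusted over all 14785 genes tested. A fold change on this scale understates that of genes near 0.1 FPKM. Any difference over the 7 strains was called by limma's F test for 19 of 21 members, where 95.2% of all genes tested were called, and for 20 without CC-4533 replicate 3. HTA9 (H2A) and HTB17 (H2B) did not pass (adjusted p = 0.054 and 0.164).

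HON1 and HON3, both linker histones, were highest in CC-4533. HON1, an H1 gene on chromosome 13, was at 12.3, 9.96, 10.7 and 8.29 FPKM in CC-4533, against 0.66 to 5.33 FPKM (median 1.55) in the 24 other libraries. Replicate 3 was within the range of the other CC-4533 replicates, and no library of another strain reached the strain. HON1 was higher in CC-4533 by a log2 difference of 2.45 ± 0.23 (SE, adjusted p = 1.01e-09, limma), and by 2.43 ± 0.26 without replicate 3 (adjusted p = 1.13e-08).

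HON3, an H1 gene on chromosome 6, was at 7.25, 5.95, 5.02 and 5.82 FPKM in CC-4533, against 0.2 to 2.53 FPKM (median 0.595) in the other libraries, again without overlap. Its log2 difference was 2.99 ± 0.37 (SE, adjusted p = 1.29e-07, limma), and 3.07 ± 0.42 without replicate 3 (adjusted p = 5.95e-07). HON1 and HON3 were the 2 members with all 4 CC-4533 libraries above the other 24, as were 1.43% of all genes tested. They were also the members higher in CC-4533 by limma's test against a 2-fold change (adjusted p = 1.84e-05 and 0.000162), which 1.37% of all genes passed. In CC-125, whose libraries share the set number of CC-4533, HON1 averaged 4.54 ± 0.932 FPKM and HON3 1.13 ± 0.427 FPKM (SD, n = 4). HON1 was higher in CC-125 as well, with a log2 difference of 1.08 ± 0.23 (SE, adjusted p = 0.000228, limma), and HON3 had one of 0.20 (adjusted p = 0.649).

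HON2, the third H1 gene, ran the other way in CC-4533. It was at 0.21, 0.16, 0.25 and 0.45 FPKM there, against 0.09 to 2.45 FPKM (median 0.775) in the other libraries, of which 3 were below the highest CC-4533 value. It was lower in CC-4533, with a log2 difference of -1.34 ± 0.24 (SE, adjusted p = 2.93e-05, limma; -1.33 without replicate 3). In CC-1690 it was at 1.23, 1.70, 1.50 and 1.81 FPKM and in CC-124 at 1.33, 0.98, 1.37 and 2.45 FPKM. HON2 entered the tests through these 2 strains. With no filter on the level, its log2 difference was 1.25 ± 0.24 in CC-1690 (SE, adjusted p = 0.000105, limma) and 1.15 ± 0.24 in CC-124 (adjusted p = 0.000401).

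HON1 was lowest in CC-1691. It was at 0.78, 0.98, 1.13 and 0.66 FPKM in CC-1691, against 0.73 to 12.3 FPKM (median 2.41) in the other libraries, and was lower there by limma (log2 difference -1.53 ± 0.23 SE, adjusted p = 4.59e-06). HON2 was lower there as well (-1.06, adjusted p = 0.00062), whereas HON3 had a log2 difference of -0.74 and did not pass. HON1 was also lower in CC-4532 (-1.11, adjusted p = 0.000209) and CC-1690 (-0.67, adjusted p = 0.0115). Among the 5 strains of library set 1 alone, the HON1 difference was -0.88 in CC-1691 (adjusted p = 0.00653), -0.44 in CC-4532 (adjusted p = 0.145) and 0.04 in CC-1690 (adjusted p = 0.892), so the last 2 calls rested on the high levels in CC-4533 and CC-125. The CC-4532 difference of HON3 (-1.0, adjusted p = 0.0232) went to -0.39 (adjusted p = 0.427) in the same way. HON1 in CC-1690 also lost its call without CC-1690 replicate 4, and HON3 in CC-4532 without single libraries.

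**Figure D3:**
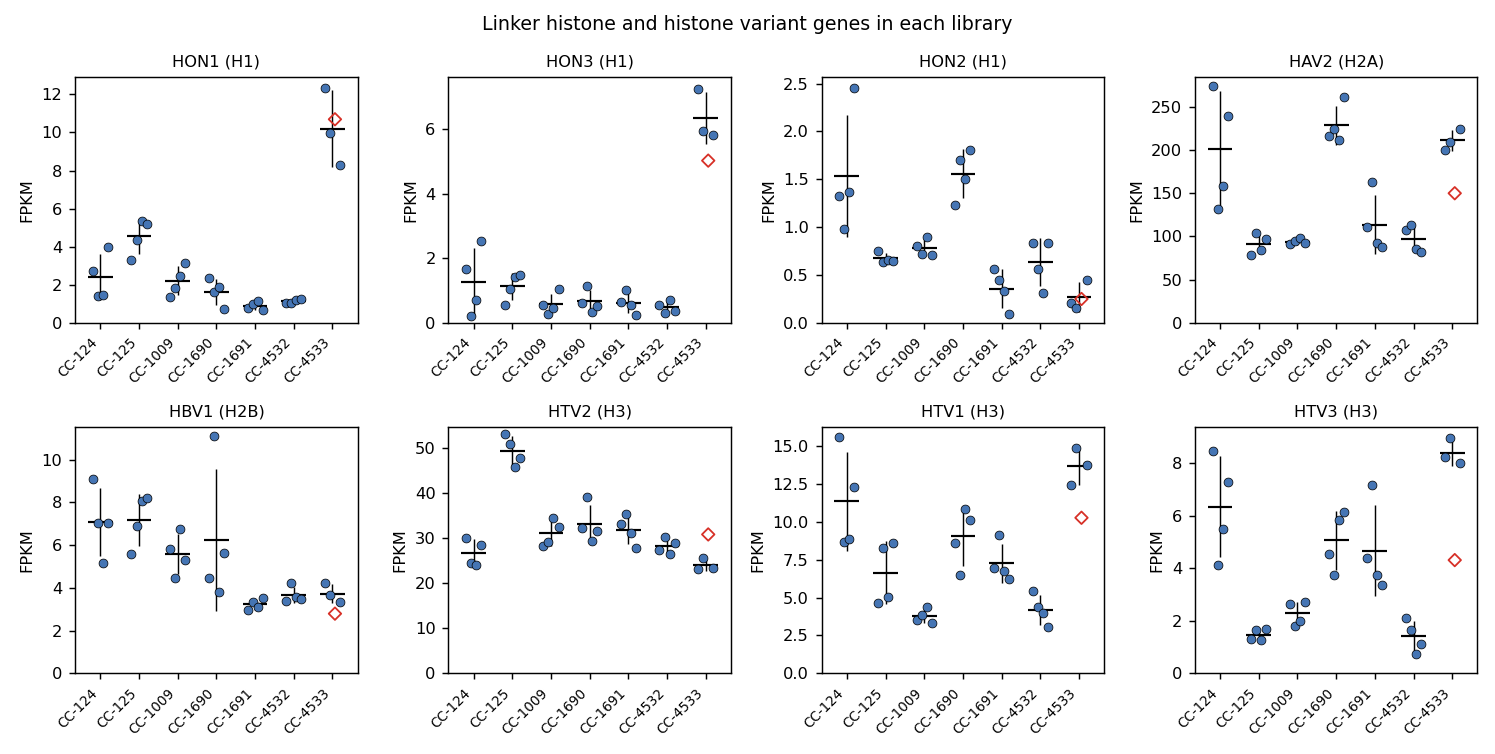
FPKM of the 3 linker histone genes and the 5 tested variants in each library, by strain. Points are libraries, the red diamond is CC-4533 replicate 3, and bars are the mean ± SD of 4 libraries (3 for CC-4533, without the diamond). HON1 and HON3 are above all other strains in CC-4533, HTV2 is above all other strains in CC-125, and HAV2, HTV1 and HTV3 are high in CC-124, CC-1690 and CC-4533.

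HAV2, the most abundant histone gene, was high in some strains and low in others. It was at 216.3, 224.7, 211.5 and 261.9 FPKM in CC-1690, against 78.8 to 274.6 FPKM (median 105.6) elsewhere. In CC-4533 it was at 200.01, 209.5, 150.02 and 224.6 FPKM, with replicate 3 the lowest, and in CC-124 at 274.6, 131.3, 157.9 and 239.0 FPKM. HAV2 was higher in CC-1690 (log2 difference 0.90 ± 0.15 SE, adjusted p = 7.29e-06, limma), in CC-4533 (0.62, adjusted p = 0.000734, and 0.75 without replicate 3) and in CC-124 (0.61, adjusted p = 0.00111). It was lower in CC-125 (-0.66, adjusted p = 0.000434), CC-1009 (-0.59, adjusted p = 0.00162) and CC-4532 (-0.56, adjusted p = 0.00259), where the 12 libraries spanned 78.8 to 113.0 FPKM. In CC-1691 it was at 110.4, 162.8, 92.9 and 88.3 FPKM, with 3 of the 4 libraries inside that span. Its log2 difference of -0.33 did not pass (adjusted p = 0.0722), but it was called lower without CC-4533 replicate 3 (-0.35, adjusted p = 0.0389).

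Among the H3 variants, HTV3 was at 8.24, 8.95, 4.31 and 8.0 FPKM in CC-4533, against 0.74 to 8.47 FPKM (median 3.02) in the other libraries, and replicate 3 was the lowest of the 4. It was higher in CC-4533 (log2 difference 1.26 ± 0.21 SE, adjusted p = 1.44e-05, limma, and 1.50 without replicate 3), CC-124 (1.01, adjusted p = 0.000258) and CC-1690 (0.67, adjusted p = 0.00706). It was lower in CC-4532 (-1.49, adjusted p = 1.87e-06), CC-125 (-1.32, adjusted p = 7.59e-06) and CC-1009 (-0.63, adjusted p = 0.0163), the last call being lost without CC-1009 replicate 2 or 3. In CC-4532 it was at 2.11, 1.64, 0.74 and 1.11 FPKM and in CC-125 at 1.32, 1.63, 1.26 and 1.67 FPKM.

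HTV1 was at 12.4, 14.9, 10.3 and 13.8 FPKM in CC-4533, against 3.03 to 15.6 FPKM (median 6.62) elsewhere, with 3 libraries of other strains above its lowest value. It was higher in CC-4533 (log2 difference 0.98 ± 0.16 SE, adjusted p = 1.38e-05, limma, and 1.08 without replicate 3) and CC-124 (0.74, adjusted p = 0.00048) and lower in CC-1009 (-1.05, adjusted p = 7.36e-06) and CC-4532 (-0.90, adjusted p = 5.76e-05). The small difference in CC-1690 (0.38, adjusted p = 0.044) was lost in 14 of the 28 fits that left out 1 library. In CC-125 the log2 difference was -0.17 and did not pass.

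HTV2, the most abundant H3 gene, had a pattern of its own. It was at 53.0, 50.9, 45.7 and 47.8 FPKM in CC-125, against 23.2 to 39.1 FPKM (median 29.2) in the other 24 libraries, without overlap. This was the case for 1 of the 21 members in CC-125, and for 6.61% of all genes tested. The log2 difference was 0.75 ± 0.08 (SE, adjusted p = 1.67e-08, limma). HTV2 was slightly lower in CC-4533 (-0.35, adjusted p = 0.000733, and -0.44 without replicate 3) and CC-124 (-0.28, adjusted p = 0.00585). In CC-4533 it was at 23.2, 25.5, 30.8 and 23.3 FPKM, and replicate 3, the lowest for HAV2, HTV1 and HTV3, was the highest for HTV2.

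HBV1, the H2B variant, was at 5.57, 6.89, 8.07 and 8.21 FPKM in CC-125, against 2.79 to 11.1 FPKM (median 4.22) elsewhere, and at 2.95, 3.35, 3.09 and 3.51 FPKM in CC-1691. It was higher in CC-125 (log2 difference 0.63 ± 0.17 SE, adjusted p = 0.00234, limma) and CC-124 (0.59, adjusted p = 0.00436) and lower in CC-1691 (-0.67, adjusted p = 0.00179), CC-4533 (-0.56, adjusted p = 0.0061, and -0.46 without replicate 3) and CC-4532 (-0.47, adjusted p = 0.0206). The last call was lost when replicate 1, 3 or 4 of CC-4532 was left out. Among the variants HBV1 thus had its highest and lowest strains where the core copies had theirs.

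The core copies with the most RNA were higher in CC-125 and lower in CC-1691. HTB21, the H2B copy with the highest mean, was at 14.7, 19.6, 16.9 and 17.3 FPKM in CC-125, against 3.46 to 23.1 FPKM (median 8.78) in the other libraries, of which 2 exceeded the lowest CC-125 value. Its log2 difference was 0.99 ± 0.24 (SE, adjusted p = 0.000809, limma). In CC-1691 it was at 3.98, 4.30, 4.95 and 4.72 FPKM, and the only library of another strain below 4.95 FPKM was CC-4533 replicate 3 at 3.46. It was lower in CC-1691 by -1.24 ± 0.24 on the log2 scale (adjusted p = 0.00011).

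HFO25, the H4 copy with the highest mean, was at 5.29, 5.85, 3.88 and 5.29 FPKM in CC-125, against 0.92 to 4.34 FPKM (median 1.83) in the other libraries. Only CC-1690 replicate 2 lay above the lowest CC-125 library. The log2 difference was 1.43 ± 0.18 (SE, adjusted p = 2.2e-07, limma). HFO25 was lower in CC-1691 (-0.92, adjusted p = 0.00017) and CC-1009 (-0.63, adjusted p = 0.00557). The weak call in CC-4533 (-0.43, adjusted p = 0.0437) did not hold without replicate 3 (-0.38, adjusted p = 0.108).

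Each of the 8 copies with a mean above 1 FPKM was higher in CC-125, with log2 differences of 0.96 to 1.43, and lower in CC-1691, with -0.73 to -1.24. Of all genes tested, 30.4% were higher in CC-125 and 23.6% lower in CC-1691. Reads can pass between near-identical copies, so these are not 8 separate results. For CC-125, strain and library set cannot be told apart. In other strains the types parted. HTA22, an H2A copy, was at 2.98, 1.88, 2.06 and 2.45 FPKM in CC-124, against 1.70 to 11.2 FPKM (median 4.12) elsewhere. It was lower there (-0.97 ± 0.22 SE, adjusted p = 0.000633, limma), as was HTA21 (-0.95, adjusted p = 0.000254), while their H2B neighbours had positive differences that did not pass in CC-124 (HTB21 0.55, adjusted p = 0.0528, and HTB22 0.33, adjusted p = 0.241). Without CC-4533 replicate 3 HTB21 was called higher there (0.48, adjusted p = 0.031). HFO24, an H4 copy, was at 3.94, 2.18, 2.23 and 2.91 FPKM in CC-4532, against 0.33 to 3.52 FPKM (median 1.18) elsewhere, with 5 libraries of other strains above its lowest value. HFO24 and HFO25 were higher in CC-4532 (1.08, adjusted p = 0.00237, and 0.52, adjusted p = 0.018), while their H3 neighbours HTR24 and HTR25 were not called there. Whether neighbours differed from each other between strains was not tested.

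Single low copies departed from the rest. HTB3, an H2B copy on chromosome 6, was at 1.28, 1.48, 1.38 and 0.89 FPKM in CC-1691, against 0 to 0.69 FPKM (median 0.125) in the other 24 libraries, without overlap, as in 1.79% of all genes tested for this strain. HTB3 entered the tests through CC-1691 alone, so nothing is read from that share. In a limma fit with no filter on the level, which tested all 17611 genes, its log2 difference was 2.53 ± 0.37 (SE, adjusted p = 8.75e-06). Its H2A neighbour HTA3 averaged 0.0875 ± 0.101 FPKM in CC-1691 (SD, n = 4). HTB28, an H2B copy on chromosome 17, was at 0.22, 0.21, 0.11 and 0.13 FPKM in CC-1691, against 0.21 to 2.18 FPKM elsewhere, and was lower there (-1.66, adjusted p = 7.69e-05). HTB17, an H2B copy on chromosome 12, was at 2.58, 0.74, 0.85 and 1.92 FPKM in CC-124, against 0 to 1.81 FPKM (median 0.48) elsewhere. It entered the tests through CC-124 alone, and its high values there were those of replicates 1 and 4, the same libraries that were high in the core sum, so its level in CC-124 is a description.

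Counted over the 21 members tested, 12 were higher in CC-125 and 2 lower, with a median log2 difference of 0.95, where 30.4% of all genes tested were higher and 28.5% lower. In CC-1691, 1 member was higher and 12 were lower (median -0.74), where 23.4% of all genes were higher and 23.6% lower. Without CC-4533 replicate 3 the counts were 12 and 3 in CC-125 and 1 and 13 in CC-1691. In CC-124, 7 were higher and 5 lower (25.6% and 27.9% of all genes), in CC-4533, 6 and 4 (29.2% and 30.3%), in CC-4532, 2 and 6 (26.6% and 27.4%), in CC-1690, 4 and 2 (34.2% and 35.3%), and in CC-1009, 0 and 5 (25.4% and 24.5%). Without replicate 3 the CC-4533 counts were 7 and 3. Among the 5 strains of library set 1 alone, 20 members were tested, and 11 were higher and 1 lower in CC-1690 (37.1% and 37.3% of all genes), 11 and 4 in CC-124 (29.8% and 31.1%), 2 and 11 in CC-1691 (27.4% and 26.6%), 4 and 4 in CC-4532 (30.1% and 27.9%) and 1 and 4 in CC-1009 (29.9% and 26.2%). The members share reads and libraries, and those that passed through 1 strain had to be high in it, so the counts are descriptions.

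**Figure D4:**
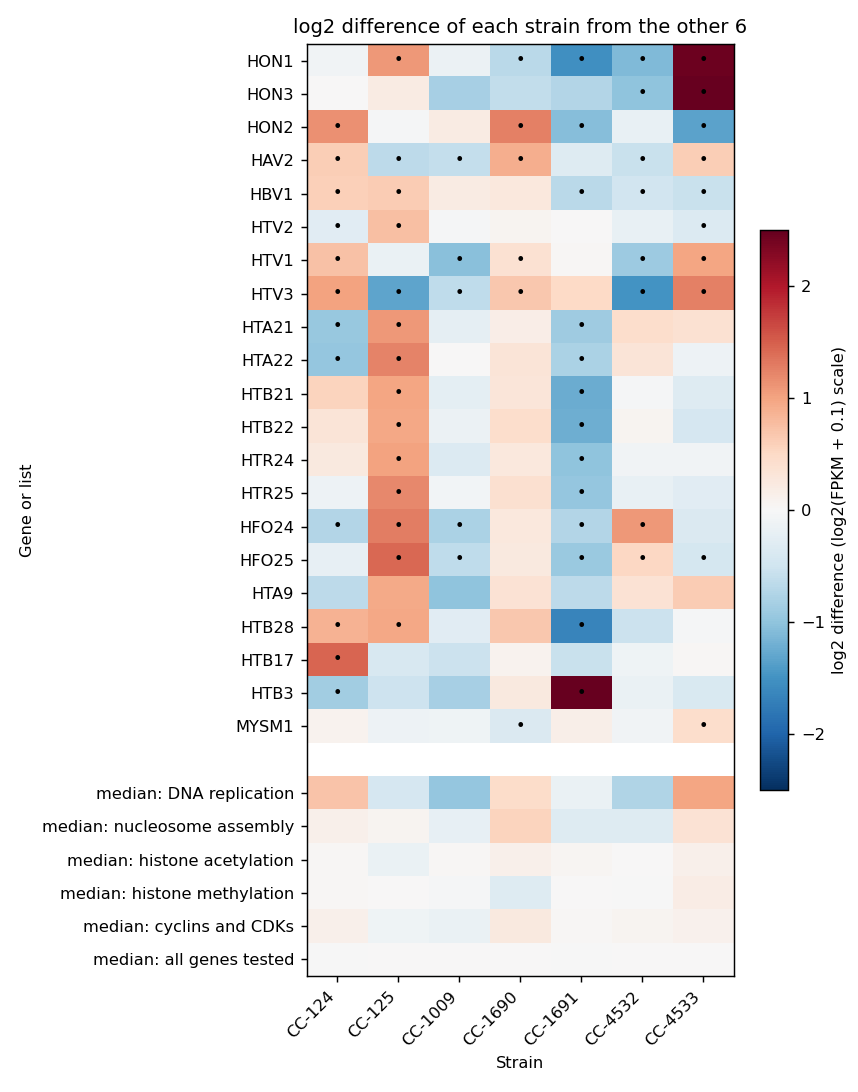
log2 difference of each strain from the other 6 on the log2(FPKM + 0.1) scale, for the 21 members tested (a dot marks an adjusted p below 0.05) and, below the gap, the median of 5 other gene lists and of all genes tested. The color scale ends at 2.5 in either direction. The 8 core copies with a mean above 1 FPKM are red in CC-125 and blue in CC-1691, while HAV2, HTV1 and HTV3 are red in CC-124, CC-1690 and CC-4533, where the DNA replication medians are 0.72, 0.45 and 0.99. HTV2 and HBV1 are red in CC-125 and blue in CC-4533.

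Genes of S phase and of chromatin were set beside the histones. The DNA replication list held 35 genes chosen by definition line, among them PCN1, the sliding clamp that holds DNA polymerase on its template. Of these, 33 were higher in CC-4533 and 0 lower (median log2 difference 0.99, and 1.46 with 34 higher without replicate 3). In CC-124, 32 were higher (0.72) and in CC-1690, 15 (0.45). Of all genes tested, 29.2% were higher in CC-4533, 25.6% in CC-124 and 34.2% in CC-1690. In CC-1009, 33 list genes were lower and 1 higher (-0.96), in CC-4532, 30 lower and 1 higher (-0.76). In CC-125, 13 were lower (-0.42) and in CC-1691, 4 (-0.17). The shares of all genes tested that were lower were 24.5% in CC-1009, 27.4% in CC-4532, 28.5% in CC-125 and 23.6% in CC-1691. Without CC-4533 replicate 3 the list counts were 32 higher and 1 lower in CC-124, and 22 higher and 1 lower in CC-1690. They were 33 lower and 1 higher in CC-1009, 34 lower and 1 higher in CC-4532, 24 lower in CC-125 and 13 lower in CC-1691. Calls over all genes rose as well, from 4208 to 4847 lower in CC-125, 3483 to 4228 lower in CC-1691 and 5057 to 5414 higher in CC-1690. The medians of all genes tested were within 0.01 of 0. Set beside the replication medians, the log2 difference of HAV2 was 0.62 in CC-4533, 0.61 in CC-124, 0.90 in CC-1690, -0.59 in CC-1009, -0.56 in CC-4532, -0.66 in CC-125 and -0.33 in CC-1691. Other variants parted from these signs. HTV2 was at -0.35 in CC-4533, -0.28 in CC-124 and 0.75 in CC-125. HBV1 was at -0.56 in CC-4533 and 0.63 in CC-125, but at 0.59 in CC-124 and -0.47 in CC-4532. The median over the 12 core copies tested was 0.99 in CC-125 and -0.90 in CC-1691, the strains with replication medians of -0.42 and -0.17. All of these comparisons share their libraries, so the values are given side by side only.

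PCN1 was at 95.5, 96.6, 24.7 and 103.5 FPKM in CC-4533, with replicate 3 at the level of the lowest strain, CC-1009, which averaged 27.02 ± 2.36 FPKM (SD, n = 4). In the same library the core H2B sum was 11.6 FPKM, against 25.3 to 35.0 FPKM in the other 3 CC-4533 libraries, while HON1 and HON3 were at 10.7 and 5.02 FPKM. Of the 12 core copies tested, 8 were below all of the other 3 replicates there, beside 41.2% of all genes tested. The median log2 difference of the 12 was -0.68, and that of all genes tested was 0.00. The 5 variants had a median of -0.41, with HTV2 above all 3 of the others.

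The other chromatin lists were counted in the same way. Of 4 nucleosome assembly genes, 3 were higher in CC-4533 (29.2% of all genes) and in CC-1690 (34.2%), and 3 were lower in CC-4532 (27.4%). Of 22 histone acetyltransferase and deacetylase genes, 4 to 10 were higher and 4 to 8 lower in every strain, with medians of -0.16 to 0.12. Over all genes, 23.4% to 34.2% were higher and 23.6% to 35.3% lower in a strain. Of 21 histone methyltransferase and demethylase genes tested, 11 were lower and 0 higher in CC-1690 (median -0.33), where 35.3% of all genes were lower and 34.2% higher. In CC-4533, 10 were higher and 1 lower (0.18, and 0.36 without replicate 3), where 29.2% of all genes were higher and 30.3% lower. Of 25 cyclins and cyclin-dependent kinases tested, 13 were higher and 5 lower in CC-1690 (34.2% and 35.3% of all genes), and 5 were higher and 11 lower in CC-1009 (25.4% and 24.5%). The enzyme MYSM1, which in mammals removes ubiquitin from H2A, was at 12.6, 11.3, 8.80 and 11.1 FPKM in CC-4533, against 6.07 to 9.11 FPKM in the other libraries, and was higher there (log2 difference 0.44 ± 0.07 SE, adjusted p = 6.67e-06, limma, and 0.54 without replicate 3, its lowest library). It was lower in CC-1690 (-0.37, adjusted p = 4.9e-05), where all 4 libraries were below the other 24, as for 7.1% of all genes tested.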

How the data were processed

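The authors sequenced poly-adenylated RNA as 50 nt single-end reads, aligned them to the v6.1 genome of CC-4532 by STAR with 1 location per read, counted reads per gene by strand with featureCounts (multimapping reads as fractions) and deposited FPKM values calculated with DESeq2, rounded to 2 decimals. The deposited table of strain means was not used. Absolute depth is unknown. Relative depth was estimated from the steps between low values.

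The 14785 genes whose mean exceeded 1 FPKM in 1 strain or more were tested over the 28 libraries on log2(FPKM + 0.1) by limma 3.58.1 (R 4.3.3, variance trend on). Each strain was set against the mean of the other 6, with Benjamini-Hochberg adjustment over all genes tested and a threshold of 0.05. On simulated data 98 of 100 genes changed 2-fold and 100 of 100 changed 4-fold were recovered. The changed genes had a mean above 1 on the log2(FPKM + 0.1) scale, the noise was normal and the change was in CC-4533 alone. Recovery was therefore not measured for lower members such as HTB3, HTB17, HTB28, HTA9 and HON2. Sums and figures were made with Python 3.11.15, numpy 2.4.6, pandas 2.3.3 and matplotlib 3.10.9. CC-125 and CC-4533 were each inoculated in 1 batch, the other strains in 2, and no batch term was fitted since the sources do not assign replicates to batches. Reads of every strain were mapped to 1 strain's genome, and the effect on other strains' copies was not tested.

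Genes were named in the text by rule: in each type the member with the highest mean and that with the smallest F test p, every variant and linker, the called members with the largest and the smallest difference in each strain, and the highest gene of each other list. HTB22, HTA21, HTA3, HTA7, HTB7, HTA9, HTR24, HTR25 and MYSM1 were named after their values were seen. Members and lists were chosen with earlier results of these data known. Alternatives were other pseudocounts, filters and scalings, a replicate block, library set 1 alone, a stricter threshold, a test against 2-fold and leaving out each library. RefSeq neighbours came from assembly v5.5, in which all 127 members were matched by locus tag.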

Additional observations from a re-analysis of the deposited data

Results flagged for a closer look

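In each strain the highest or lowest of the 4 libraries was compared with the other 3. Of 185 such groups 12 (6.49%) held a library far from the others by Dixon's criterion, where chance alone marks about 1 in 20. In CC-4533 replicate 3 this was so for PCN1 (24.7 FPKM), for Cre09.g416350, a nucleosome assembly protein (84.5 FPKM), and for CKS1, a regulatory subunit of cyclin-dependent kinases (30.3 FPKM), each below the other 3 replicates. HFO25 was high in CC-4533 replicate 1 (2.12 FPKM) and HTA22 in CC-1690 replicate 2 (11.2 FPKM), the library with the largest summed FPKM. HAV3 was above 0 in a single CC-125 library (replicate 2, 0.16 FPKM) and a single CC-4533 library (replicate 2, 0.15 FPKM). Cre09.g416350 was low in CC-125 replicate 1 (106.3 FPKM), and PRMT10, an arginine methyltransferase, in CC-4532 replicate 1 (36.2 FPKM). Among the sums over all members of a type, H3 was high in CC-4532 replicate 2 (46.6 FPKM) and H4 in CC-4532 replicate 1 (11.6 FPKM), and the core sum was high in CC-1691 replicate 2 (34.0 FPKM).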

How the results depend on the processing

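Of 42 differences of named members, 36 kept their call whichever library was left out. The 42 were all called in the main fit: the largest and smallest called difference of each strain and every called variant or linker. They were thus chosen by their calls in the same data, and the share of all called genes that kept theirs was not counted. With library set 1 alone the HON1 difference in CC-1690 went to 0.04, and the count of members called in CC-1690 went to 12 of 20 (11 higher), against 6 of 21 (4 higher). With no filter all 127 members were tested and the counts called were 26 in CC-124, 22 in CC-125, 19 in CC-1009, 11 in CC-1690, 29 in CC-1691, 15 in CC-4532 and 42 in CC-4533 (39 higher, where the libraries are among the deepest), and 64 by the F test, beside 42.5% to 62.6% of all genes in a strain and 88.4% by the F test. With a filter at 5 FPKM, 14 members were tested and 7 were called in CC-124 and 8 in CC-1691 (54.7% and 50.5% of all genes). The test against 2-fold called 1 member in CC-1691, 2 in CC-4533 and 0 in the other 5 strains. In those 5 strains 12, 14, 5, 6 and 8 passed the test against no change. Of all genes, 3.41% to 6.83% passed the test against 2-fold in a strain. The member called in CC-1691 was HTB3, which entered the tests through that strain alone, so nothing is read from its call. At an adjusted p of 0.01, 3 were called in CC-1009 and 5 in CC-4532 (38% and 41.9% of all genes). Leaving out 1 library gave 10 to 13 calls in CC-124, 13 to 15 in CC-125, 3 to 8 in CC-1009 (8 without CC-124 replicate 2 and 3 without CC-1009 replicate 2), 4 to 8 in CC-1690, 12 to 15 in CC-1691, 5 to 9 in CC-4532 (5 without CC-4532 replicate 4), 9 to 11 in CC-4533 and 19 to 21 by the F test.

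The fold of the highest over the lowest strain mean was 8.91 for the summed H1 genes (CC-4533 over CC-1691), 2.24 for H2A (CC-1690 over CC-1009), 2.59 for H2B (CC-125 over CC-1691), 1.74 for H3 (CC-125 over CC-4532), 3.32 for H4 and 2.87 for the core copies (both CC-125 over CC-1691). As a share of the summed FPKM of the library it was 5.26 for H1 (the same strains), 2.46 for H2A (CC-124 over CC-125), 2.11 for H2B (CC-124 over CC-1691), 1.59 for H3 (CC-124 over CC-1690), 2.09 for H4 (CC-125 over CC-1691) and 1.91 for the core copies (CC-124 over CC-1691). As a median over members it was 3.64 for H3, 16.4 for H4 and 4.34 for the core copies, each CC-4533 over CC-1691, and it could not be given for H2A, where a strain had a median of 0. With only members above 1 FPKM in a strain it was 3.92 for H4 and 3.39 for the core copies, both CC-125 over CC-1691. Leaving out 1 library gave, in the order of the first sums, 7.72 to 9.96, 2.14 to 2.30, 2.47 to 2.81, 1.70 to 1.78, 3.19 to 3.45 and 2.77 to 3.01. The settings for the core copies and the leave-one-out sums were chosen after seeing the data.

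Replicate numbers did not pair the samples: over 84 same-numbered pairs the correlation of their deviations had a median of 0.002 and a range of -0.372 to 0.281, and 5 of 28 libraries correlated best with their own number. With the replicate block the counts called were 11 in CC-124, 15 in CC-125, 6 in CC-1009, 6 in CC-1690, 14 in CC-1691, 8 in CC-4532 and 10 in CC-4533, and the only call of a named member lost was HTV1 in CC-1690 (adjusted p = 0.0561).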
